A study of Mus musculus with 12 samples.

Results

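The 10 genes described here are feedback inhibitors and transcriptional outputs of the ERK pathway, and all 10 were chosen by name from the 21885 genes of the deposited table. They comprise 4 dual-specificity phosphatases (Dusp2, ENSMUSG00000027368; Dusp4, ENSMUSG00000031530; Dusp5, ENSMUSG00000034765; Dusp6, ENSMUSG00000019960) and 4 members of the Sprouty and Spred family (Spry1, ENSMUSG00000037211; Spry2, ENSMUSG00000022114; Spry4, ENSMUSG00000024427; Spred1, ENSMUSG00000027351). Ier3 (ENSMUSG00000003541) and Etv5 (ENSMUSG00000013089) complete the set. ERK is the last kinase of a cascade that runs from growth factor and cytokine receptors through RAS, RAF and MEK. Active ERK switches on transcription of its own inhibitors, so that the mRNA of Dusp and Sprouty genes is widely used as a readout of recent pathway output. In B-cell precursors the pathway is engaged by cytokine receptors and by the pre-B-cell receptor, and mutations that activate RAS recur in B-cell acute lymphoblastic leukaemia.

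RNA-seq of 12 libraries of sorted mouse cells, in 3 groups of 4, set leukaemias driven by a Pax5 mutant beside normal and Pax5-deficient precursors. The P80R B-ALL group held GFP+ leukaemia cells with the PAX5 P80R mutant, a substitution in the DNA-binding domain of this B-lineage transcription factor, 1 library from each of the primary recipients 1300, 1301, 1302 and 1308. The Pax5 KO group (genotype Pax5-/-) held CLP/pre-pro-B cells, which are early lymphoid progenitors, and the Pax5 WT group (genotype Pax5+/+) held pro-B/pre-BI cells, both sorted from fetal liver (FL). The labels name no treatment, no batch and no age, and do not say whether the fetal liver libraries came from separate animals, so p-values there measure only the spread between these samples. Genotype and sorted stage differ together between the fetal liver groups and cannot be told apart, and the leukaemias differ from both in these and in their source. In bulk samples, fewer cells of a type and less RNA per cell cannot be told apart either.

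Depth was 24914250 to 29386256 reads per library in P80R B-ALL, 36871775 to 43513852 in Pax5 KO and 33191950 to 39465256 in Pax5 WT. Values are deposited scaled read counts, which were whole reads multiplied by 1 factor per library. Pax5 itself, named here as a check of the labels, was at 255 to 1316 scaled counts in P80R B-ALL, 230 to 267 in Pax5 KO and 6194 to 7315.5 in Pax5 WT. Reads in Pax5 KO libraries may lie outside a deleted part, and reads of a mutant and of the endogenous gene were not separated, so these levels are a limited check. Summed over 9 B-lineage markers, scaled counts were 75022 to 135119 in P80R B-ALL, 39996 to 41064 in Pax5 KO and 233054 to 272686 in Pax5 WT, in the order of the labelled stages for the fetal liver groups. The leukaemia libraries also held transcripts of other cell types: 8 erythroid markers summed to 410505, 38834, 32543 and 1066405 in recipients 1300, 1301, 1302 and 1308, against 175 to 227 in Pax5 KO and 97 to 181 in Pax5 WT. Granulocyte and monocyte markers summed to 135073, 13703, 5597 and 241156 in the same recipients, against 10448 to 11203 in Pax5 KO and 575 to 828 in Pax5 WT. Plasmacytoid dendritic markers summed to 342072 in recipient 1308 and to between 16499 and 25458 in every other library. Macrophage, T-lineage, and NK and innate lymphoid markers summed to at most 30510, 5668 and 5313 in P80R B-ALL, with no marker of these at 0 throughout that group. Of 8 hepatocyte markers, Alb, Apoa1, Ttr, Serpina1a and Fgb were listed at 0 in all 12 libraries. The 8 summed to 11038 to 22942 in P80R B-ALL, 484 to 569 in Pax5 KO and 25.8 to 42.5 in Pax5 WT, and most of the P80R B-ALL sum was Trf, the iron carrier transferrin, at 10927 to 22910. Afp and Apoa2 were at most 83.0 in any library. The part of any of these transcripts in the results was not tested. Recipients 1300 and 1308 thus stood apart from the other leukaemias, and results for the 10 genes are given without them where this changes a call.

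Dusp5, Ier3 and Dusp2 were the 3 members lower in P80R B-ALL than in Pax5 KO cells. Dusp6 had the highest mean level per exon length in the leukaemias, though its range overlapped that of Dusp2. For these reasons the sequences just upstream of these 4 genes are shown. Each is the 250 bases before the annotated start in RefSeq, build GRCm38.p6, 5′ to 3′ on the gene's strand, with matches in capitals. Promoters were examined for 8 of the 10 genes, 9 promoters in all since Etv5 had 2. Those of Dusp4 and Spry4 were not examined.
Dusp5, chr19:53528895-53529144, plus strand: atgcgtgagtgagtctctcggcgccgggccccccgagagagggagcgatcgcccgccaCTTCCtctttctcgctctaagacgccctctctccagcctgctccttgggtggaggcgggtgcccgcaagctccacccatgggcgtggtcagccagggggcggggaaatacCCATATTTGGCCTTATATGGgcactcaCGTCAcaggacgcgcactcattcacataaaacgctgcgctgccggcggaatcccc
Ier3, chr17:35821463-35821712, plus strand: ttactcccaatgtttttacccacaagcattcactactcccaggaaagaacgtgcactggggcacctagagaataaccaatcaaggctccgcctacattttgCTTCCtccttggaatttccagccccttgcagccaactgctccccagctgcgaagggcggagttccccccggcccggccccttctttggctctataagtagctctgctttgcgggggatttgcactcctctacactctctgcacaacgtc
Dusp2, chr2:127335909-127336158, plus strand: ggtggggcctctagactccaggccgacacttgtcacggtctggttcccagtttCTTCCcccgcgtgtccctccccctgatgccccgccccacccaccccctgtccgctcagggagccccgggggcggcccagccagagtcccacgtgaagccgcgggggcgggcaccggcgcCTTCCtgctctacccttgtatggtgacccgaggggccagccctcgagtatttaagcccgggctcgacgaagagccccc
Dusp6, chr10:99262981-99263230, plus strand: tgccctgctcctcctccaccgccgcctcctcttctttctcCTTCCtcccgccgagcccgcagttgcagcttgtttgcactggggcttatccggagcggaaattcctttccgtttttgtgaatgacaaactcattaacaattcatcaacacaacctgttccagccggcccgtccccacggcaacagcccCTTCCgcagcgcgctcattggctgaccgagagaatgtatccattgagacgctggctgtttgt
Capitals mark 4 motifs searched on both strands: the CArG box of the serum response factor, the cAMP response element core TGACG, the AP-1 site TGANTCA and the ETS core GGAAG, which reads CTTCC on the other strand. Among the 9 promoters of members that were examined, only the Dusp5 window held CArG boxes. It had 2 directly next to each other, ending 72 and 62 bases before the start and not overlapping any other match. A TGACG match on the other strand lay 50 bases before the start of Dusp5. Of 32851 annotated promoters of the same length, 1.47% held a CArG box, and 6 promoters (0.0183%) held 2 or more, among them those of Dusp5 and of Srf, which encodes the serum response factor. TGACG occurred in 17.8% of the promoters, TGANTCA in 6.75% and GGAAG in 64.1%. The windows of Dusp2 and Dusp6 had 2 GGAAG matches each, and that of Ier3 had 1. These matches describe letters in a reference window, and no binding was measured.

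Most of the feedback genes were higher in Pax5 KO progenitors than in Pax5 WT cells, and their levels in the leukaemias were widely scattered. In Pax5 KO cells against Pax5 WT cells, 9 of the 10 members were higher and none was lower by limma with Benjamini-Hochberg adjustment over all genes (threshold 0.05), while 35.7% of all 12200 tested genes were higher, 29.1% lower and 64.8% called in either direction. The members' median log2 difference was 1.63, against 0.06 over all tested genes. At an unadjusted p under 0.05 by limma, and by edgeR and DESeq2 with adjustment, 1 member (Spred1) was lower. Of the 12200 genes, 3730 were lower unadjusted by limma, 30.2% by edgeR and 30.9% by DESeq2. The libraries of Pax5 KO were all above those of Pax5 WT for 9 members, and for 32.4% of all genes. With all 12 libraries in the limma fit 5 members were higher, beside 20.1% of all genes. In P80R B-ALL against Pax5 KO cells, 3 members were lower (Dusp2, Dusp5 and Ier3) and none was higher, beside 20.8% of all genes lower, 17.6% higher and 38.4% in either direction, so the share of members called was near the background. Here the median was -1.69, against -0.11 over all genes. No member was higher at an unadjusted p under 0.05, by edgeR or by DESeq2. Of the 12200 genes, 2643 were higher unadjusted by limma, 20.6% by edgeR and 24.2% by DESeq2. The count of lower members was 5 without recipient 1300, beside 20.4% of all genes, and 7 without recipients 1300 and 1308 (with Dusp4, Spry1, Spry2 and Spry4), beside 27.8%. Without Pax5 KO library 3 the share of all genes called in either direction was 25.6%. In 4 members (those 3 and Dusp4) every leukaemia was below every Pax5 KO library, as in 22.9% of all genes. In P80R B-ALL against Pax5 WT cells, 1 member was higher (Spry4) and none was lower, beside 21.0% of all genes higher, 18.9% lower and 39.9% in either direction, and the median was -0.30 against 0.00 over all genes. No member was lower at an unadjusted p under 0.05, by edgeR or by DESeq2. Of the 12200 genes, 2893 were lower unadjusted by limma, 16.8% by edgeR and 18.0% by DESeq2. Without recipient 1301 the count of higher members was 4 (Dusp6, Spry1, Spry4 and Etv5), beside 21.0% of all genes. By edgeR 2 members were higher (Spry1 and Spry4), beside 22.4% of all genes, and by DESeq2 3 (with Dusp6), beside 26.0%. Without recipients 1300 and 1308, Spry4 was higher and Spry2 lower, beside 22.5% and 20.9% of all genes. Every leukaemia was above every Pax5 WT library for 1 member (Spry4; 21.2% of all genes) and below for 1 (Dusp2; 19.4%). The 3 comparisons share their groups, so their values are set side by side and are not independent of each other. Differences are on the log2(value + 1) scale, which understates the change of low genes.

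**Figure D1:**
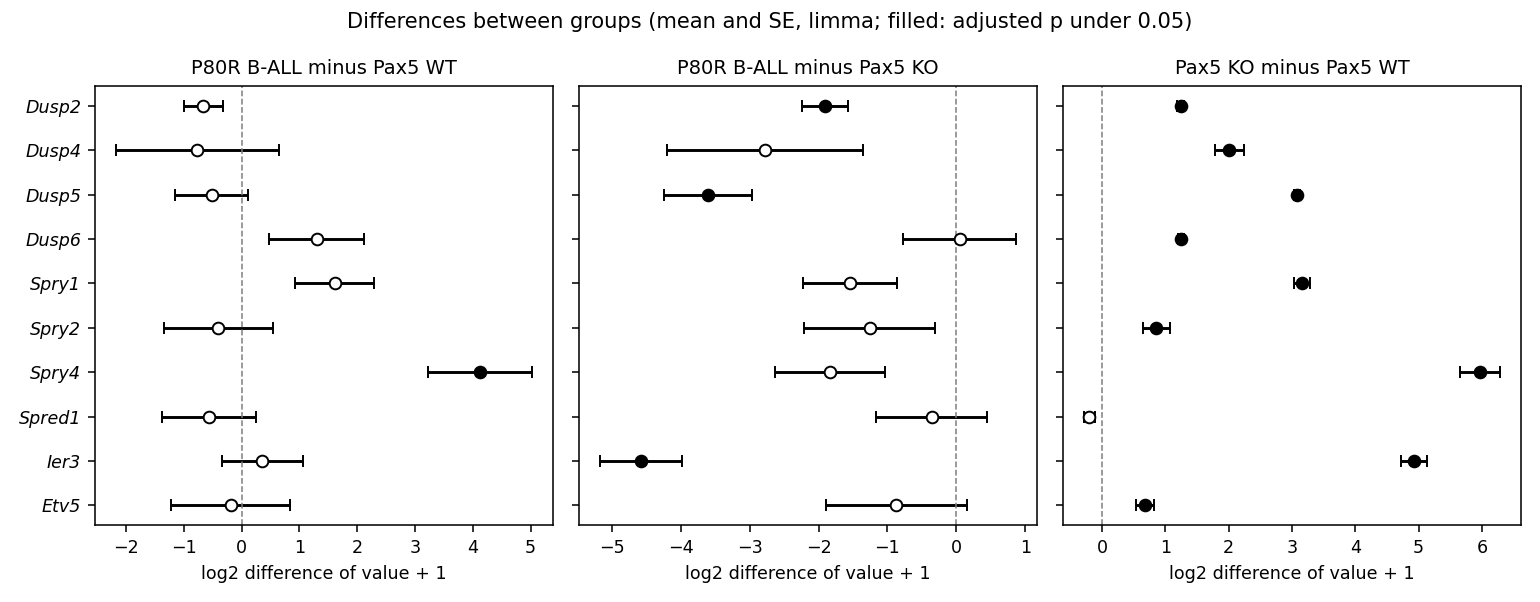
Log2 differences of the 10 members in P80R B-ALL minus Pax5 WT (left), P80R B-ALL minus Pax5 KO (middle) and Pax5 KO minus Pax5 WT (right), as mean and standard error from limma on log2(value + 1) with 4 libraries per group; filled points have an adjusted p under 0.05. Standard errors reach 1.42 in the comparisons with leukaemias and stay at or under 0.32 between the fetal liver groups.

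Among the phosphatases, Dusp6 is the cytoplasmic enzyme that removes phosphate from ERK itself. It had 21303, 853, 8026 and 8134 scaled counts in the P80R B-ALL of recipients 1300, 1301, 1302 and 1308. Its values were 5595, 5870, 5582 and 5652 in Pax5 KO libraries and 2306, 2331, 2469 and 2450 in Pax5 WT libraries. The leukaemia of recipient 1300 was thus far above every fetal liver library, those of recipients 1302 and 1308 were above them too, and that of recipient 1301 was below all of them. Dusp6 was higher in Pax5 KO cells than in Pax5 WT cells by 1.25 ± 0.05 on the log2 scale (SE; adjusted p = 1.32e-09). The difference of P80R B-ALL from Pax5 WT cells was 1.30 ± 0.82 and did not pass the test (adjusted p = 0.234). Without recipient 1301 it was 2.22 and passed it (adjusted p = 0.00159). Against Pax5 KO cells the difference of P80R B-ALL was 0.05 ± 0.82 (adjusted p = 0.969), an error too wide to call the levels alike.

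Dusp5, an inducible nuclear phosphatase with a strong preference for ERK, followed another order. Its values were 214, 2380, 1623 and 1110 in the leukaemias of recipients 1300, 1301, 1302 and 1308, 11658, 12092, 12091 and 11954 in Pax5 KO libraries, and 1386, 1407, 1364 and 1479 in Pax5 WT libraries. All leukaemias lay below all Pax5 KO libraries, while they lay on both sides of the Pax5 WT libraries, and recipient 1300, highest for Dusp6, was lowest for Dusp5. In P80R B-ALL it was 12.2-fold lower than in Pax5 KO cells (log2 difference -3.61 ± 0.64, adjusted p = 0.00349). The difference was -2.88 without recipient 1300 and -2.60 without recipients 1300 and 1308, both past the test (adjusted p = 0.000284 and 6.47e-05). Between P80R B-ALL and Pax5 WT cells the difference was -0.52 ± 0.63 (adjusted p = 0.539). In Pax5 KO cells Dusp5 was 8.48-fold higher than in Pax5 WT cells (3.08 ± 0.05 log2, adjusted p = 5.89e-13).

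Dusp2, a nuclear MAP kinase phosphatase of blood cells, had 6907, 6640, 4437 and 2153 scaled counts in the 4 leukaemias, in the same recipient order. Pax5 KO libraries had 19176, 16090, 16238 and 17395, and Pax5 WT libraries had 6995, 7364, 7152 and 7513. Every leukaemia was below every fetal liver library, with recipients 1300 and 1301 close under the Pax5 WT values. Dusp2 was 3.75-fold lower in P80R B-ALL than in Pax5 KO cells (log2 difference -1.91 ± 0.33, adjusted p = 0.00311). The difference from Pax5 WT cells, -0.66 ± 0.33, did not pass the test (adjusted p = 0.132) although the groups did not overlap. In Pax5 KO cells Dusp2 was 2.37-fold higher than in Pax5 WT cells (adjusted p = 6.64e-09).

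Dusp4, another nuclear phosphatase of ERK and related kinases, was much less abundant. It had 112, 0, 72.0 and 140 scaled counts in the leukaemias of recipients 1300, 1301, 1302 and 1308, 211, 267, 247 and 181 in Pax5 KO libraries, and 73.7, 52.0, 63.3 and 37.0 in Pax5 WT libraries. Recipient 1301 had no read of Dusp4, which at its depth allows up to 3 reads, or 3.69 scaled counts, by counting error alone. All leukaemias were below all Pax5 KO libraries, and they spread around the Pax5 WT libraries. The difference of P80R B-ALL from Pax5 KO cells was -2.78 ± 1.42 (adjusted p = 0.149), and without recipient 1301 it was -1.10 and passed the test (adjusted p = 0.0286). It was -4.72 without recipients 1300 and 1308, which leaves recipient 1301 as 1 of 2 leukaemias, and passed there too (adjusted p = 0.0349). Dusp4 was 4.04-fold higher in Pax5 KO cells than in Pax5 WT cells (adjusted p = 8.90e-06).

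Sprouty proteins act further upstream, at the adaptors that link receptors to RAS. Of all members, Spry4 differed most from Pax5 WT cells in both other groups: 225, 9.84, 98.0 and 88.6 scaled counts in the leukaemias of recipients 1300, 1301, 1302 and 1308, 257, 205, 231 and 289 in Pax5 KO libraries, and 3.78, 5.00, 1.98 and 1.72 in Pax5 WT libraries. The Pax5 WT values rest on 13 reads in all 4 libraries together, and every other library was above each of them. Spry4 was higher in P80R B-ALL than in Pax5 WT cells by 4.13 ± 0.90 log2 (adjusted p = 0.00594), and it stayed past the threshold without any 1 library and without recipients 1300 and 1308. The difference was 5.01 without recipient 1301 and 3.07 without recipients 1300 and 1308. It was higher in Pax5 KO cells than in Pax5 WT cells by 5.97 ± 0.32 log2 (adjusted p = 1.09e-08). Against Pax5 KO cells, the leukaemias overlapped and the difference was -1.84 ± 0.80 (adjusted p = 0.0986), with an adjusted p of 0.0360 and a difference of -2.42 without recipient 1300. Without recipients 1300 and 1308, which leaves only recipients 1301 and 1302, it was -2.90 (adjusted p = 0.0212).

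Spry1 had 3913, 255, 832 and 639 scaled counts in the leukaemias of the same recipients, against 2681, 2381, 2564 and 2358 in Pax5 KO libraries. Pax5 WT libraries had 320, 313, 219 and 274. Recipient 1300 was above all Pax5 KO libraries, recipients 1302 and 1308 lay between the fetal liver groups, and recipient 1301 was within the Pax5 WT range. Spry1 was 8.91-fold higher in Pax5 KO cells than in Pax5 WT cells (3.16 ± 0.12 log2, adjusted p = 3.85e-10). P80R B-ALL differed from Pax5 WT cells by 1.61 ± 0.68 (adjusted p = 0.0890), and by 2.19 without recipient 1301 (adjusted p = 0.0176). From Pax5 KO cells P80R B-ALL differed by -1.54 ± 0.68 (adjusted p = 0.105), and by -2.28 without recipient 1300 (adjusted p = 0.00331). With only recipients 1301 and 1302 left, without recipients 1300 and 1308, the difference was -2.43 (adjusted p = 0.00381).

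Spry2 was the most uneven Sprouty gene among the leukaemias, with 285, 12.3, 13.6 and 116 scaled counts in recipients 1300, 1301, 1302 and 1308. Its values were 161, 107, 108 and 113 in Pax5 KO libraries and 51.0, 83.0, 64.3 and 68.8 in Pax5 WT libraries. Recipients 1301 and 1302 were below every fetal liver library, recipient 1300 was above every one, and recipient 1308 fell within the Pax5 KO range. Neither comparison with P80R B-ALL passed the test (adjusted p = 0.762 against Pax5 WT and 0.321 against Pax5 KO). Recipients 1300 and 1308 held the most erythroid and myeloid transcripts and also had the highest Spry2 values of the leukaemias. Without them, Spry2 was lower than in Pax5 WT cells (log2 difference -2.26, adjusted p = 0.00266) and lower than in Pax5 KO cells (-3.12, adjusted p = 0.000412). That leaves only recipients 1301 and 1302, with 10 and 11 reads of Spry2. The part of the erythroid and myeloid transcripts in the result was not tested. Pax5 KO cells were 1.81-fold above Pax5 WT cells (adjusted p = 0.00393).

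Spred1, which brings the RAS inhibitor neurofibromin to the membrane, had 8075, 352, 3956 and 2337 scaled counts in the leukaemias of recipients 1300, 1301, 1302 and 1308. The fetal liver values were 2637, 2931, 3036 and 3048 in Pax5 KO and 3841, 3312, 3471 and 2840 in Pax5 WT. Leukaemias lay far above and far below libraries of both groups, and the fetal liver groups overlapped. It was the 1 member not higher in Pax5 KO cells, with a difference from Pax5 WT cells of -0.20 ± 0.09 (adjusted p = 0.0640), which passed the threshold as lower without Pax5 WT library 4 (-0.28, adjusted p = 0.00259). Its differences in P80R B-ALL were -0.56 ± 0.81 from Pax5 WT and -0.36 ± 0.81 from Pax5 KO cells, neither past the test.

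Ier3 is an immediate-early gene whose protein binds ERK and affects cell survival. It had 42.1, 7.38, 11.2 and 51.2 scaled counts in the leukaemias of recipients 1300, 1301, 1302 and 1308, 581, 483, 451 and 581 in Pax5 KO libraries, and 11.3, 16.0, 17.8 and 20.6 in Pax5 WT libraries. Pax5 KO libraries stood alone at the high end, and the leukaemias lay on both sides of the Pax5 WT libraries. Ier3 was 23.8-fold lower in P80R B-ALL than in Pax5 KO cells (log2 difference -4.58 ± 0.60, adjusted p = 0.000889), with every leukaemia below every Pax5 KO library. Without recipients 1300 and 1308 the difference was -5.69 (adjusted p = 2.25e-05). Its difference from Pax5 WT cells was 0.36 ± 0.70 (adjusted p = 0.716). In Pax5 KO cells Ier3 was 30.5-fold higher than in Pax5 WT cells (adjusted p = 1.36e-09). The Pax5 WT values of Ier3 rest on 70 reads in all libraries of that group together.

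Etv5 encodes an ETS transcription factor that is induced by ERK and is an output of the pathway, not an inhibitor of it. The leukaemias of recipients 1300, 1301, 1302 and 1308 had 1774, 65.2, 2804 and 1334 scaled counts. Pax5 KO libraries had 1463, 1499, 1539 and 1460, and Pax5 WT libraries had 974, 1128, 1029 and 665. Recipient 1301 was far below every other library, and the remaining leukaemias were above every Pax5 WT library. Etv5 was 1.60-fold higher in Pax5 KO cells than in Pax5 WT cells (0.68 ± 0.14 log2, adjusted p = 0.000879). P80R B-ALL differed from Pax5 WT cells by -0.19 ± 1.03 (adjusted p = 0.897), and without recipient 1301 the difference turned to 1.01 and passed the test (adjusted p = 0.0236). From Pax5 KO cells it differed by -0.87 ± 1.02 (adjusted p = 0.525).

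**Figure D2:**
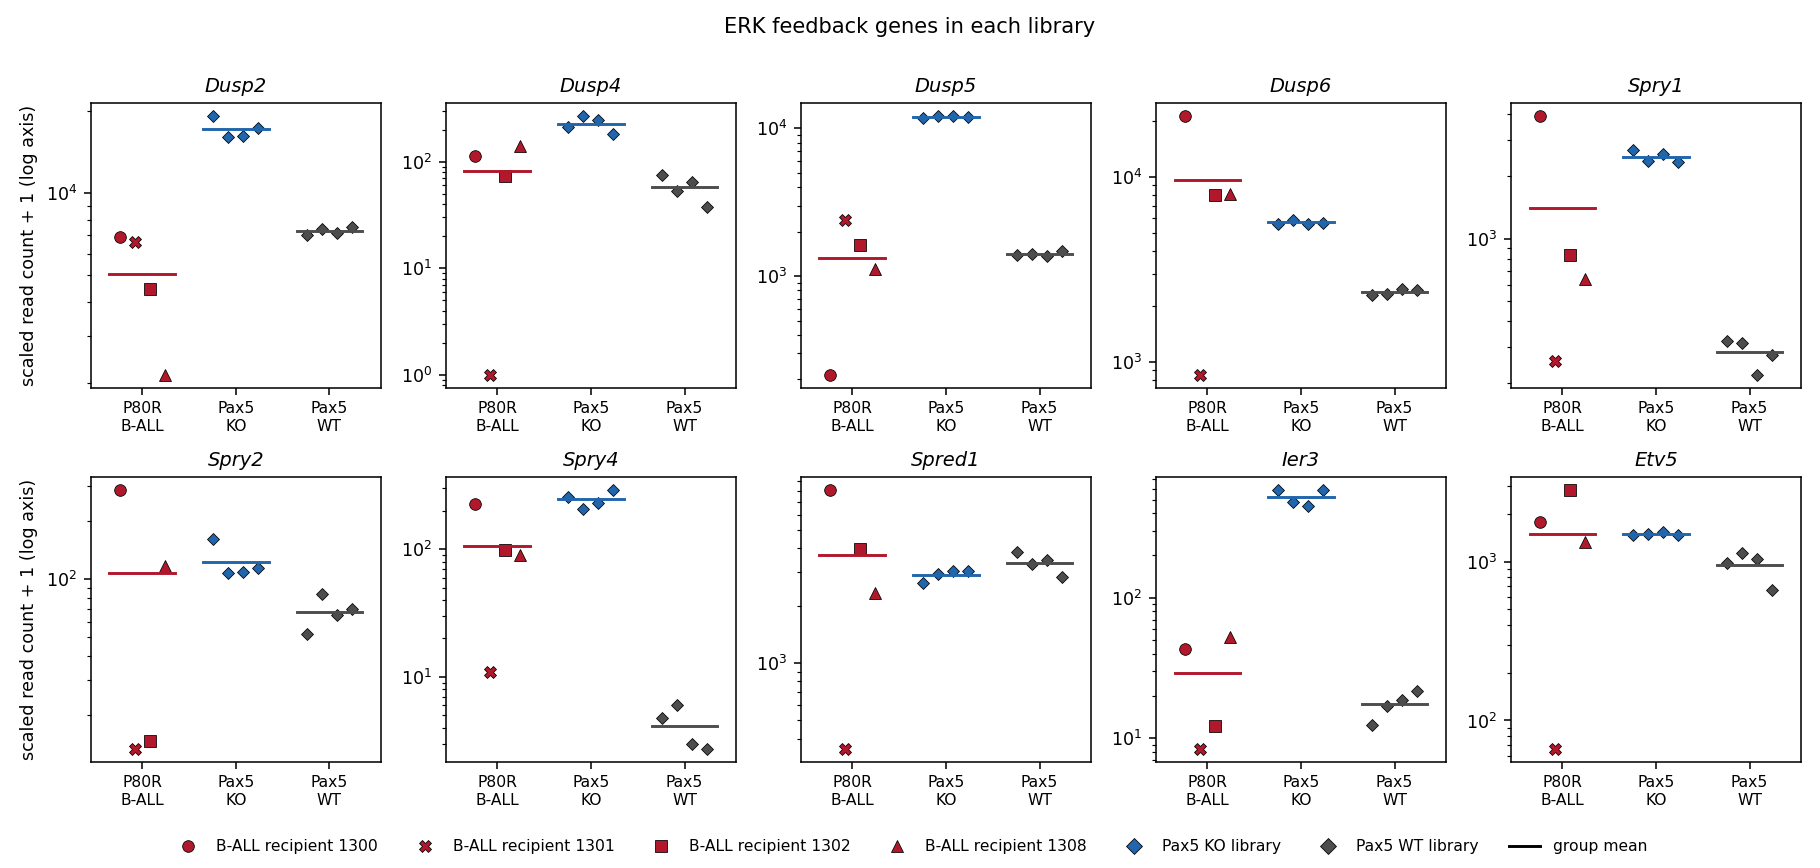
Scaled read count plus 1 of each member in each library on a log axis, one panel per gene, with P80R B-ALL at the left (1 symbol per recipient), Pax5 KO in the middle and Pax5 WT at the right, and a line at the group mean of 4 libraries. The leukaemia of recipient 1301 (cross) is the lowest of the leukaemias in 8 of 10 panels. For Dusp2, Dusp4, Dusp5 and Ier3 every Pax5 KO library is above every library of both other groups.

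The members varied far more among leukaemias than among fetal liver libraries. The median over the 10 members of the standard deviation of log2 values was 1.90 in P80R B-ALL, 0.107 in Pax5 KO and 0.267 in Pax5 WT. Over all tested genes these medians were 0.467, 0.114 and 0.159. Recipient 1301 had the lowest value of the 4 leukaemias for 8 of the 10 members, all but Dusp2 and Dusp5, whereas it was lowest for 25.2% of all tested genes. For 6 members its value was lower than the next leukaemia by 2-fold or more, which held for 4.29% of all genes. It was below every Pax5 KO library in 10 of 10 members (49.8% of all genes) and below every Pax5 WT library in 7 (42.6%).

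In that leukaemia Etv5 was 30.2-fold below the mean of the other 3, Dusp6 14.6-fold, Spry4 13.9-fold, Spred1 13.6-fold and Spry1 7.05-fold, and Dusp4 had no read; these are the 6 members just counted. Spry2 was nearly as low in recipient 1302 as in recipient 1301. The library of recipient 1301 was the deepest of the 4 leukaemias. Its erythroid markers summed to 38834, near the 32543 of recipient 1302 and far below the 410505 and 1066405 of the others. Its granulocyte and monocyte markers summed to 13703, against 5597 in recipient 1302 and 135073 and 241156 in the others. Recipient 1301 had the highest B-lineage sum of the 4 (135119) and the lowest plasmacytoid dendritic sum (16499). The part of cell composition in its low values was not tested. Recipient 1300 had 8 members above every Pax5 WT library (42.4% of all genes) and 5 above every Pax5 KO library (39.9%), the second count near the background, while Dusp5 and Dusp2 were below both. Recipient 1301 was also often the lowest leukaemia, by any margin, in the lists of other genes of the pathway. This held for 3 of 7 tested other phosphatases and Sprouty genes and 7 of 12 other ERK output genes. It held for 6 of 10 RAS brakes, 13 of 24 genes of the RAS to ERK cascade and 2 of 6 upstream receptors, beside 25.2% of all genes. By 2-fold or more it was lowest for 3, 4, 2, 0 and 0 genes of these lists, in the same order, beside 4.29% of all genes.

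**Figure D3:**
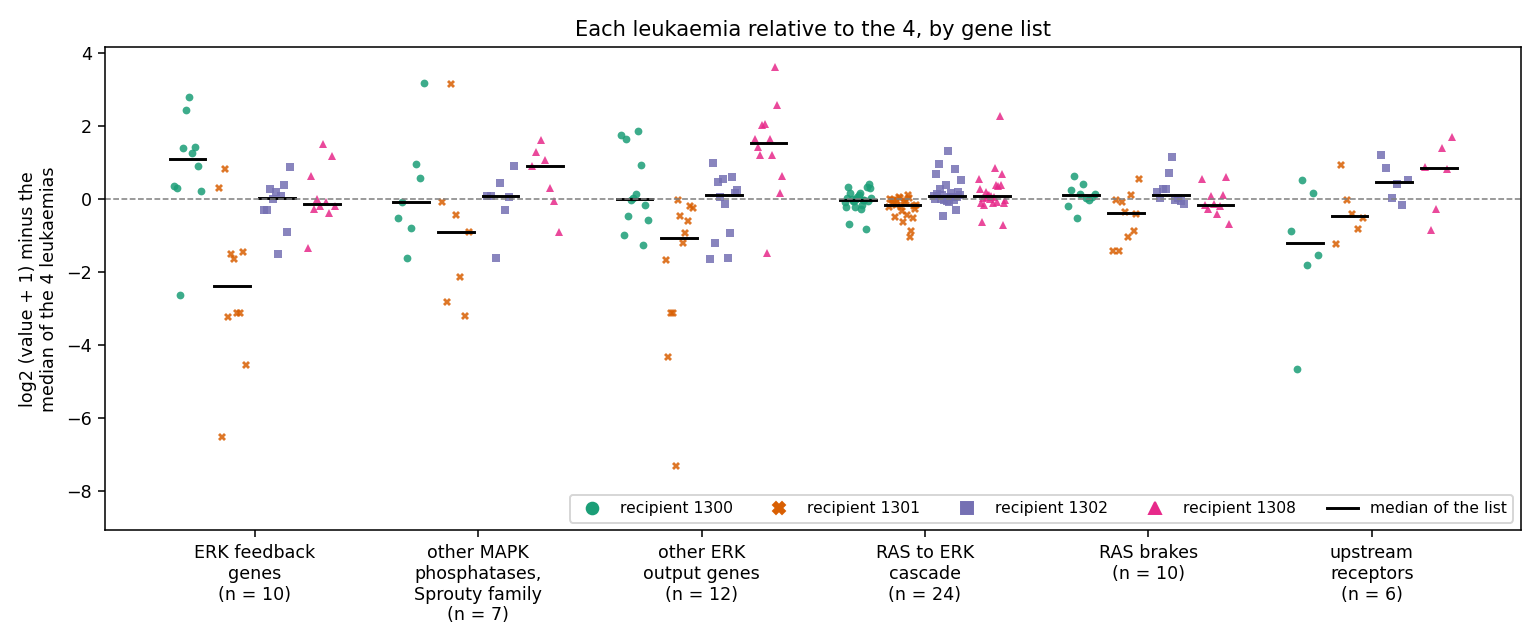
Log2(value + 1) of each gene in each leukaemia minus the median of the 4 leukaemias, by gene list, with 1 point per gene, a black bar at the list's median for that recipient and n the number of tested genes. The median of recipient 1301 is lowest in the list of ERK feedback genes, and the medians of all 4 recipients lie close to 0 in the RAS to ERK cascade.

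Levels can be compared between genes only per length, as RPKM, the reads per unit of exon length and of library depth. In P80R B-ALL the order by mean RPKM was Dusp6 (91.0 ± 84.0, SD, n = 4), Dusp2 (73.5 ± 33.5), Spred1 (16.2 ± 15.0), Dusp5 (15.4 ± 10.4), Spry1 (14.6 ± 17.9) and Etv5 (10.9 ± 8.62), with the other members at or under 1.51. Each neighbouring pair in this order overlapped between libraries. In Pax5 KO cells the order was sharper, with Dusp2 at 275 ± 28.6, Dusp5 at 154 ± 0.716, Dusp6 at 57.9 ± 1.21 and Spry1 at 27.5 ± 2.18 RPKM and no overlap between these. Below them came Ier3 (14.8 ± 2.12) and Spred1 (13.7 ± 0.680), which overlapped, Etv5 (11.6 ± 0.246), and then Dusp4, Spry2 and Spry4 at 1.65 to 2.64, of which the last 2 overlapped their neighbour. Pax5 WT cells had Dusp2 at 109 ± 2.49, Dusp6 at 22.9 ± 0.742 and Dusp5 at 17.1 ± 0.394 RPKM. Spred1, at 14.9 ± 1.98 RPKM, overlapped Dusp5 there, Etv5 and Spry1 followed at 6.95 ± 1.52 and 2.91 ± 0.480, and the remaining members were under 1 RPKM, with Spry4 last at 0.0197 ± 0.00990.

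The nearest genes in pattern were found by the root mean square difference of centred log2 values over the 12 libraries, a description in which all points share their libraries. For Dusp6 they were Tal1 (0.339), Ubash3b (0.457) and Synj2 (0.517). For Spry4 they were Ppp1r3d (0.436), Slc16a10 (0.649) and Rarg (0.727), and for Etv5 they were Zfp182 (0.361), Lactb2 (0.373) and Dip2a (0.40). The closest pair of members was Spred1 and Etv5 (0.616), with Etv5 ranked 25 among the 12199 other genes for Spred1 and Spred1 ranked 8 for Etv5. Dusp2 had no near relative among the members: its nearest, Dusp5, was at 1.26 and ranked 8485. Spred2, named here after its values were seen, was the nearest gene of all to Spred1 (0.392).

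The counts that follow for other lists of the pathway are to be read against all tested genes. Of these, 21.0% were higher and 18.9% lower in P80R B-ALL than in Pax5 WT cells. In P80R B-ALL, 17.6% were higher and 20.8% lower than in Pax5 KO cells. In Pax5 KO cells, 35.7% were higher and 29.1% lower than in Pax5 WT cells. These limma shares use all libraries of each pair, and they also moved when libraries were left out. The share higher in P80R B-ALL than in Pax5 KO cells was 16.8% without recipient 1301, 20.6% by edgeR and 24.2% by DESeq2. The share lower in that comparison was 24.2% without recipient 1308. Of 7 tested phosphatases, Sprouty and Spred genes outside the set, 0 were higher and 2 lower in P80R B-ALL than in Pax5 WT cells, 0 higher and 3 lower than in Pax5 KO cells, and 3 higher and 3 lower in Pax5 KO than in Pax5 WT cells. With each library left out in turn, 1 to 2 were lower than in Pax5 WT cells, 0 to 1 higher and 2 to 3 lower than in Pax5 KO cells (the 1 without recipient 1301), and 2 to 4 higher and 1 to 3 lower between the fetal liver groups. Dusp1, an early-response phosphatase of several MAP kinases, had 234, 317, 362 and 634 scaled counts in the 4 leukaemias. It had 1521 to 1747 in Pax5 KO and 940 to 995 in Pax5 WT libraries. Every leukaemia was below every fetal liver library, and the difference was -2.19 ± 0.27 log2 from Pax5 KO cells (adjusted p = 0.000737) and -1.41 ± 0.28 from Pax5 WT cells (adjusted p = 0.00359). Dusp9 was listed at 0, 25.8, 0 and 8.30 in the leukaemias, and was at 64.7 to 127 in Pax5 KO and 34.4 to 67.2 in Pax5 WT libraries, lower in P80R B-ALL in both comparisons. Its call against Pax5 WT cells (adjusted p = 0.0242) was lost without recipient 1300 or any of 3 Pax5 WT libraries. Spred3 was at most 15.8 scaled counts in the leukaemias and 19.5 to 43.4 in Pax5 KO libraries (adjusted p = 0.0205, lost without any of 3 Pax5 KO libraries).

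Most other output genes of ERK were also higher in Pax5 KO cells. In Pax5 KO against Pax5 WT cells, 10 of 12 tested genes were higher and 1 was lower, and in P80R B-ALL against Pax5 KO cells 0 were higher and 6 lower, with 1 higher by edgeR, 2 by DESeq2 and 2 by limma without recipient 1301. The 6 lower genes were the immediate-early genes Egr1, Egr2, Egr3, Fos, Ier2 and Junb. Egr1, an immediate-early zinc finger factor, had 128, 82.5, 104 and 363 scaled counts in the leukaemias, 25244 to 27580 in Pax5 KO and 755 to 1144 in Pax5 WT libraries. It was below both fetal liver groups in every leukaemia (-7.54 ± 0.40 log2 from Pax5 KO, adjusted p = 1.84e-05, and -2.80 ± 0.42 from Pax5 WT, adjusted p = 0.000854). Ier2 was likewise lower in P80R B-ALL (log2 difference -2.83 ± 0.13 from Pax5 KO and -0.82 ± 0.14 from Pax5 WT cells). Fos was 13072 to 13668 in Pax5 KO libraries against 797 to 881 in Pax5 WT libraries, higher by 4.01 ± 0.06 (adjusted p = 1.69e-13). Etv1, an ETS factor related to Etv5, had 689, 64.0, 64.5 and 639 scaled counts in the leukaemias, all above the 0.989 to 15.1 of Pax5 WT libraries (5.69 ± 1.02 log2, adjusted p = 0.00219). In P80R B-ALL against Pax5 WT cells, 2 of the 12 were higher (Etv1 and Egr2) and 2 lower (Egr1 and Ier2), and the Egr2 call (adjusted p = 0.0354) was lost without any of 5 of the 8 libraries. Ccnd1, a D-type cyclin named here after its values were seen, had 4167, 25.8, 4410 and 17650 in the leukaemias and 149 to 182 in Pax5 WT libraries, so that recipient 1301 was again the low one (3.37 ± 1.70 log2, adjusted p = 0.145, and 5.37 with an adjusted p of 0.000205 without it).

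**Figure D4:**
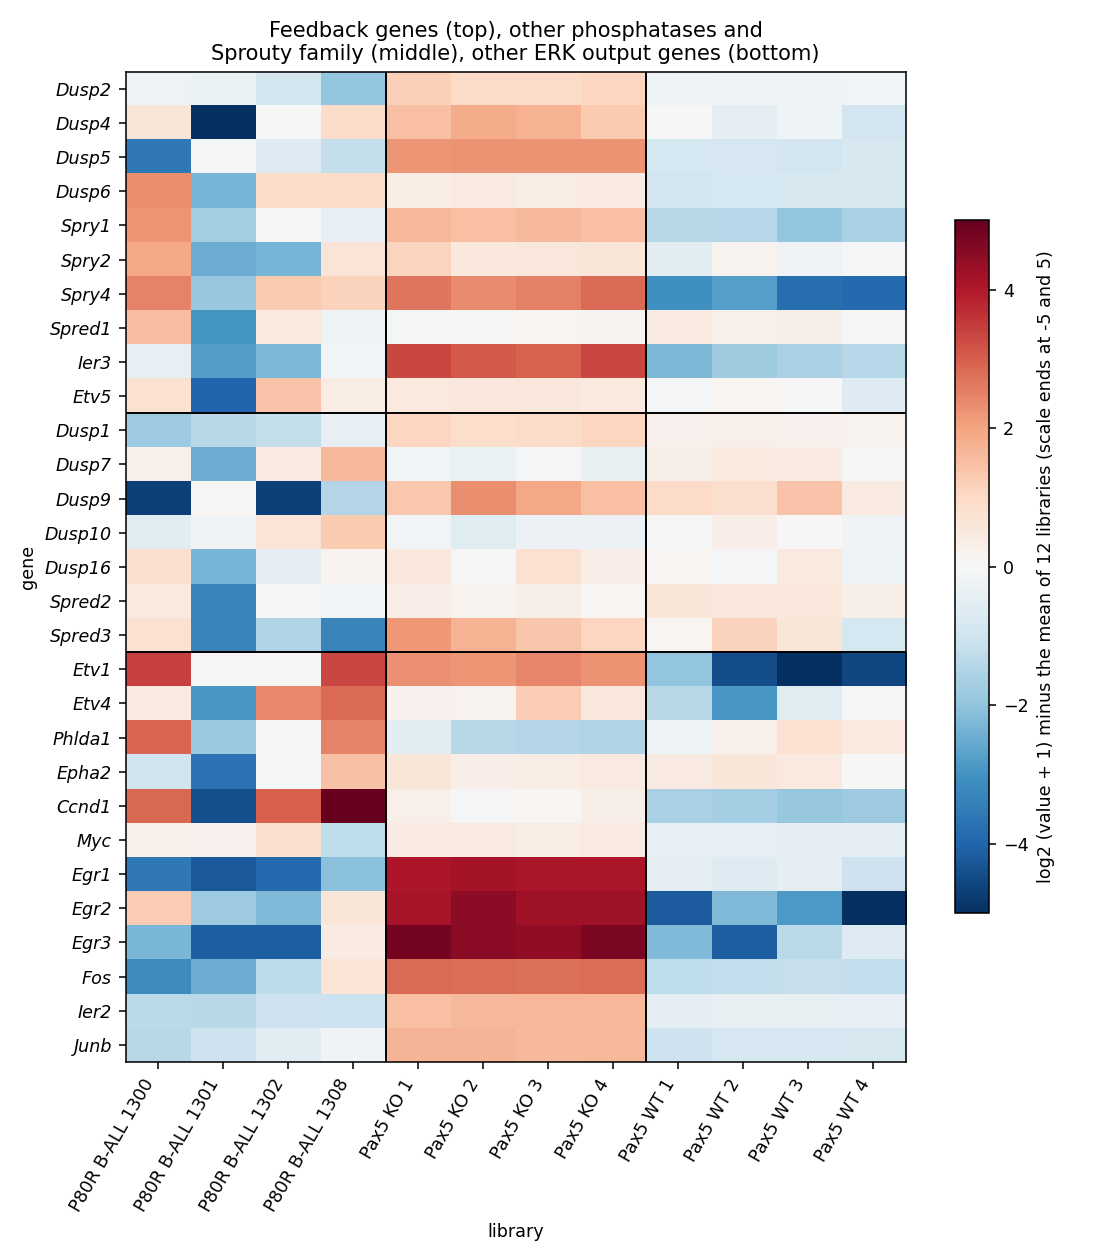
Log2(value + 1) minus the gene's mean over 12 libraries, with P80R B-ALL, Pax5 KO and Pax5 WT libraries from left to right and the members, the other phosphatases and Sprouty genes, and the other ERK output genes from top to bottom; red is above and blue below the mean, and the scale ends at -5 and 5. The 4 Pax5 KO columns are red for 9 of the 10 members relative to Pax5 WT, and the column of recipient 1301 is blue for most rows.

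Of 24 tested genes from adaptors to ERK and its nuclear partners, 1 was higher and 8 lower in P80R B-ALL than in Pax5 WT cells, 0 higher and 8 lower than in Pax5 KO cells, and 12 higher and 1 lower in Pax5 KO than in Pax5 WT cells. The lower counts in P80R B-ALL moved with single libraries. With each left out they ran from 1 (without Pax5 WT library 2 or 3) to 8 against Pax5 WT. Against Pax5 KO they ran from 4 (without Pax5 KO library 2 or 3) to 12 (without recipient 1302, when 1 was higher). There, 15 were lower without recipients 1300 and 1308. The share of all genes lower against Pax5 KO moved too, and was 13.1% without Pax5 KO library 3. It was 23.7% without recipient 1302 and 27.8% without recipients 1300 and 1308. Srf, whose promoter also held 2 or more CArG boxes, had 272 to 433 scaled counts in P80R B-ALL and 581 to 678 in Pax5 KO cells. It was lower in P80R B-ALL (log2 difference -0.97 ± 0.19, adjusted p = 0.00533). Mapk3, which encodes an ERK, was also lower in P80R B-ALL than in Pax5 KO cells (log2 difference -0.60 ± 0.14, adjusted p = 0.0100). Elk3, an ETS partner of the serum response factor, was higher in Pax5 KO cells than in Pax5 WT cells by 1.33 ± 0.07 (adjusted p = 1.02e-08).

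Among 10 RAS brakes, 0 were higher and 1 lower in P80R B-ALL than in Pax5 WT cells, 0 higher and 2 lower than in Pax5 KO cells, and 4 higher and 1 lower in Pax5 KO than in Pax5 WT cells. With each library left out, 1 to 3 were lower than in Pax5 KO cells, and 1 was higher than in Pax5 WT cells without recipient 1301. The gene lower in both P80R B-ALL and Pax5 KO than in Pax5 WT cells was Dab2ip, a RAS GTPase-activating protein, with 23.4 to 110 scaled counts in P80R B-ALL, 20.5 to 41.1 in Pax5 KO and 163 to 278 in Pax5 WT libraries (-2.13 ± 0.49 log2 in P80R B-ALL, adjusted p = 0.00728, and -2.79 ± 0.26 in Pax5 KO, adjusted p = 1.32e-06). Of 6 upstream receptors, 3 were higher and 0 lower in P80R B-ALL than in Pax5 WT cells, 1 was higher and 1 lower than in Pax5 KO cells, and 4 were higher and 1 lower in Pax5 KO than in Pax5 WT cells. With each library left out, the lower receptors numbered 0 to 3 against Pax5 KO (3 without recipient 1308) and 0 to 1 between the fetal liver groups. Flt3 had 2374, 1848, 10056 and 7957 scaled counts in the leukaemias, 12388 to 14303 in Pax5 KO and 15.8 to 34.0 in Pax5 WT libraries. Every leukaemia was below all Pax5 KO and above all Pax5 WT libraries for this receptor, and its call against Pax5 KO cells (adjusted p = 0.0369) was lost without recipient 1300, recipient 1301 or any 1 Pax5 KO library. Il7r, the chain for the cytokine that drives early B-cell growth, was 7427 to 12989 in P80R B-ALL, 5357 to 6235 in Pax5 KO and 3925 to 4115 in Pax5 WT libraries, higher in P80R B-ALL in both comparisons (adjusted p = 0.0111 against Pax5 KO and 0.000580 against Pax5 WT). Recipient 1301 was the lowest leukaemia for Flt3, but not by 2-fold, and recipient 1308 was the lowest for Il7r. For most feedback genes recipient 1301 was the lowest by 2-fold or more. In these lists beyond the members, each count of 0 was also 0 at an unadjusted p under 0.05 by limma, and by edgeR and DESeq2 with adjustment, except for the other ERK output genes against Pax5 KO cells.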

How the data were processed

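Cells had been sorted into lysis buffer, and libraries came from a SMART-Seq v4 full-length kit, per the labels' protocols; such libraries carry no strand information. The submitters' processing notes list fastp, STAR 2.7.8a, featureCounts and the mm39 build. No annotation, strand setting or scaling method is stated there. The signal in the deposited table was a scaled count: each value (100%, tolerance 0.001) equalled a whole number times the lowest nonzero one in its library, so the authors had applied 1 factor per library. Dividing by that lowest value gave back reads, which served for depths and for edgeR 4.0.16 and DESeq2 1.42.0. Symbols matched 21780 of 21885 identifiers. Exon lengths came from an older annotation, so RPKM values are approximate.

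Log2(value + 1) was tested with limma 3.58.1 in R 4.3.3 (trend and robust options, two-sided) on the 8 libraries of each pair, over the 12200 genes that reached 10 scaled counts in 4 or more of the 12 libraries; all 10 members passed. The filter keeps a gene through the group where it is high. Benjamini-Hochberg adjustment ran over all tested genes, with a threshold of 0.05. The members, the lists and the marker sets were chosen with earlier results of these data known. On simulated data, the share of false calls exceeded the threshold with pair-wise limma, and less so with edgeR, in all 3 comparisons. All 10 members are named; of each other list, at most 4 genes per comparison with the smallest adjusted p, of which 1 is not reported here. Counting limits at 0 use 3 reads and cover counting error only. Alternatives were other pseudocounts, filters, scalings and tests, all 12 libraries in 1 fit, each library left out, recipients 1300 and 1308 left out, and the replicate number as a block. No batch is named in the labels. No values of proteins or phosphorylated ERK were used here.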

Additional observations from a re-analysis of the deposited data

Results flagged for a closer look

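Among the 30 sets of 4 libraries (10 members in 3 groups), 2 had 1 library far from the other 3, where chance alone flags about 1 in 20 sets. For Dusp4 in P80R B-ALL, the gap between recipient 1301, with 0 reads, and the nearest other leukaemia was 0.867 of the group's whole range on the log2(value + 1) scale, above Dixon's critical value. For Spry2 in Pax5 KO, library 1, with 161 scaled counts, stood above the other 3, which had 107 to 113, by 0.869 of the range.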

How the results depend on the processing

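Of the differences of members under the alternatives, 489 kept direction and side of the threshold, 20 became called, 4 lost a call and 27 changed sign. No member called in the comparisons above changed sign, and each of the 4 lost calls (Dusp4, Dusp6, Spry2 and Etv5 in Pax5 KO against Pax5 WT) came with all 12 libraries in the fit.

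Members past the threshold in P80R B-ALL against Pax5 WT numbered 1, beside 39.9% of all genes in either direction. They numbered 2 by edgeR (39.2%), 3 by DESeq2 (43.9%), 2 with all 12 libraries (51.0%) and 2 without recipients 1300 and 1308 (43.4%). With each library left out they numbered 1 to 4 (4 without recipient 1301, beside 39.5%). Against Pax5 KO they numbered 3 (38.4%), and 7 without both recipients (48.9%). There, each library left out gave 3 to 5 (5 without recipient 1300, beside 37.6%). In Pax5 KO against Pax5 WT they numbered 9 (64.8%), and 5 with all 12 libraries (34.4%). Here, each library left out gave 9 to 10 (10 without Pax5 WT library 4, beside 66.4%). Over all genes, calls against Pax5 KO numbered 4683, and 3118 to 5315 with each library left out; between the fetal liver groups 7901 became 4193 with all 12 libraries.

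Sign changes, all of differences not past the threshold with all libraries, were as follows. In P80R B-ALL against Pax5 WT, edgeR and DESeq2 gave Dusp4 0.50 and 0.56, Spry2 0.68 and 0.72, Spred1 0.13 and 0.17, and Etv5 0.65 and 0.69. Without recipients 1300 and 1308, Dusp5 was 0.48 and Ier3 -0.76. Leaving out each library gave Dusp4 -1.47 to 0.91, Dusp5 -0.95 to 0.21, Spry2 -1.24 to 0.24, Spred1 -1.17 to 0.33, Ier3 -0.0617 to 0.82 and Etv5 -0.79 to 1.01. Against Pax5 KO, edgeR and DESeq2 gave Spred1 0.41 each and Etv5 0.0687 and 0.0676, Dusp6 was -1.12 without both recipients, and each library left out gave Dusp6 -0.57 to 0.98, Spred1 -0.97 to 0.53 and Etv5 -1.47 to 0.33. The causes were not tested. edgeR and DESeq2 moved the median of all genes by 0.118 and 0.134 in P80R B-ALL against Pax5 KO. edgeR there called 2519 genes higher and 1833 lower, where limma called 2151 and 2532.

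Labels number both fetal liver groups 1 to 4. Correlations of same-numbered libraries were 0.00493 to 0.0616, and those of differently numbered libraries were -0.0627 to 0.0355. The labels state no pairing, and values this near 0 cannot decide whether the numbers pair libraries. With the replicate number as a block, 9 members and 7987 genes (65.5%) were called. Low counts limit Spry4 in Pax5 WT (13 reads) and Ier3 in both Pax5 WT (70 reads) and P80R B-ALL (84 reads).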
